A study of Mus musculus with 5 samples.

Results

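The genes described here are 10 genes of arginine and polyamine metabolism, namely Arg1, Arg2, Ass1, Asl, Odc1, Ddah1, Oat, Nos2, Srm and Sat1. They were chosen by name, with attention to whether Arg1 transcripts come from epithelial cells or from macrophages and to what is co-expressed with Arg1, out of 24299 genes with at least 1 transcript count in any library. All 10 were detected in each of the 5 libraries. The level of Arg1 in both compartments and its co-expression within cells were part of that choice, so they are given as descriptions with no test. The tissue was the mammary tumour of PyMT mice, in which the polyoma middle T antigen drives tumours of the mammary epithelium. The labels state neither the age of the mice nor whether libraries came from separate animals, so p-values measure only the spread between these libraries, which may be technical.

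The tumours were digested, enriched for viable cells and profiled by single-cell RNA sequencing on 2 platforms. Fresh digests were run on 10x Chromium (droplets; fresh 10x 1 and fresh 10x 2, the replicates of 1 group). A digest kept at 4 °C, for 24 h by its title and overnight by the protocol, was run on 10x Chromium alone (stored 10x), after flow cytometry had shown reduced viability. BD Rhapsody (microwells) was used for BD 1, labelled fresh, and BD 2, whose title says fresh while its files are named for 24 h. BD 2 is therefore described with the other libraries and enters no main platform or storage comparison. It enters only alternative platform fits in which the BD libraries are grouped by title.

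Arginine is split by the arginases into urea and ornithine, and ornithine is either turned into the polyamines putrescine, spermidine and spermine, which growing cells need, or returned to glutamate and proline. Nitric oxide synthases compete for the same arginine and release nitric oxide and citrulline, from which arginine can be rebuilt. In tumours, Arg1 is widely used as a marker of alternatively activated macrophages and Nos2 as a marker of classically activated ones.

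The coding genes lie at the following positions in GRCm38 (GENCODE vM21). The arginases are Arg1 (cytosolic, chr10:24915221-24927484, minus strand) and Arg2 (mitochondrial, chr12:79130777-79156301, plus strand). Ass1 (chr2:31470207-31520672, plus strand) and Asl (chr5:130011258-130029247, minus strand) rebuild arginine from citrulline. Nos2, the inducible nitric oxide synthase, lies at chr11:78920787-78960254 on the plus strand, and Ddah1, which breaks down methylated arginines that inhibit nitric oxide synthases, at chr3:145758675-145894277 on the plus strand. Oat, the ornithine aminotransferase that leads ornithine to glutamate and proline, lies at chr7:132557478-132576398 on the minus strand. The polyamine genes are Odc1 (makes putrescine, chr12:17544794-17551505, plus strand), Srm (makes spermidine, chr4:148591503-148594993, plus strand) and Sat1 (acetylates spermidine and spermine for breakdown or export, chrX:155213132-155216449, minus strand).

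Promoter sequences are shown for Ass1, Odc1 and Ddah1, because these members were higher in cycling tumour cells. Each is the 250 bases before the RefSeq start of the gene (GRCm38.p6), all on the plus strand, at chr2:31470020-31470269, chr12:17544623-17544872 and chr3:145758442-145758691. The GENCODE starts given above fall inside these stretches, so their last bases belong to the gene by that annotation. RefSeq promoters were at hand for 5 of the 10 members and not for Arg1, Arg2, Asl, Nos2 and Srm. Capitals mark the E-box CACGTG and the GC box GGGCGG, the latter searched on both strands, so that its reverse complement CCGCCC is marked as well. The E-box reads the same on both strands, and the motifs do not overlap.
Ass1: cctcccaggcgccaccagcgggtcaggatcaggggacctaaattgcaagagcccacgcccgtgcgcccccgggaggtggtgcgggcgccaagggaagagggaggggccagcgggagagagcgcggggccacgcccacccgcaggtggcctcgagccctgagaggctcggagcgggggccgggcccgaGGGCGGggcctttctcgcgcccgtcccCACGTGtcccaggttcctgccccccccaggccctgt
Odc1: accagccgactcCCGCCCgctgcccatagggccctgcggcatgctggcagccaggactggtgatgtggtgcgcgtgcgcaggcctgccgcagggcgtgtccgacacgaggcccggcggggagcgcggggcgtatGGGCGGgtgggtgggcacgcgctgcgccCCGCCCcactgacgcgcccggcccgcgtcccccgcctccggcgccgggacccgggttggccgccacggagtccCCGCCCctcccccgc
Ddah1: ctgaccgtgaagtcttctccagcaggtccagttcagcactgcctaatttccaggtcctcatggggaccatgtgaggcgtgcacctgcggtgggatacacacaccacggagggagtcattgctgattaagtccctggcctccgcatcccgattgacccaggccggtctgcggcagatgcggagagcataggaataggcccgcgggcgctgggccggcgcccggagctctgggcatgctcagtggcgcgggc
The Ass1 promoter held 1 E-box, which begins 36 bases before the RefSeq start, and 1 GC box, 63 bases before it. Both lie inside the gene by the GENCODE start, as does the Odc1 GC box nearest the RefSeq start. The Odc1 promoter held 4 GC boxes and no E-box, and Ddah1 neither motif. Of the promoters at hand but not shown, that of Sat1, which was lower in cycling cells, held 2 GC boxes and no E-box. That of Oat held neither motif. The E-box was present in 6.02% and the GC box in 32.7% of 32851 mouse promoters of the same length.

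Library depth ranged from 29166129 to 59957945 unique molecular identifiers (UMIs, each a counted transcript molecule) in 15958 cells, with a median of 8926 to 12474 UMIs per cell. Levels are given as UMIs per 1000000 UMIs of the same cells (CPM). Lists of 5 values are in the order fresh 10x 1, fresh 10x 2, stored 10x, BD 1, BD 2. They come from the 3′ ends of transcripts, so they compare a gene between cells and not genes with each other. Cells were clustered without the members and without 36 other genes of the pathway, and clusters were called epithelial-like, macrophage-like and so on from marker genes. Epithelial-like cells made up 65.3% to 70.7% of the cells of a library. Macrophage markers summed to 14752 to 20899 CPM in macrophage-like cells and 9.17 to 22.2 CPM in epithelial-like cells. The macrophage-like class was not pure. Dendritic cell markers summed to 146 to 519 CPM in it, against 0.0841 to 0.521 CPM in epithelial-like cells. Epithelial markers were less clean, with 25469 to 30302 CPM in epithelial-like and 1722 to 4362 CPM in macrophage-like cells. The median mitochondrial share stood apart by platform, at 6.14% to 7.17% in the 10x libraries, 15.2% in BD 1 and 19.8% in BD 2. Clusters holding 1410 cells, led mostly by mitochondrial or haemoglobin genes, stayed unnamed. At most 24 cell barcodes were shared by any pair of libraries.

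Nearly all Arg1 transcripts came from epithelial-like cells. These held 97.0%, 94.7%, 96.2%, 93.9% and 96.8% of the Arg1 UMIs of the libraries (95.7% ± 1.37, SD, n = 5 libraries). Macrophage-like cells held 0%, 2.15%, 1.51%, 4.23% and 1.16% in the same order. Exact 95% binomial intervals, which cover counting error only, reach up to 0.229% for the 0 of 1609 UMIs in fresh 10x 1 and run from 3.71% to 4.80% in BD 1. Epithelial-like cells held 77.7% to 86.3% of all UMIs, so their share of Arg1 was above their share of the RNA in every library.

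The Arg1 level in epithelial-like cells was 65.6, 67.8, 56.6, 109 and 111 CPM. In macrophage-like cells it was 0, 44.9, 40.4, 77.1 and 26.6 CPM. The epithelial level was higher within each of the 5 libraries, by 44.1 ± 29.5 CPM (SD), although the ranges over libraries overlap. For the 0 of fresh 10x 1, whose 50 macrophage-like cells held few UMIs, a count of 0 allows up to 8.28 CPM and up to 6.0% of cells with a UMI. The other classes were lower still, with 0 to 27.5 CPM in T-like cells and means of 6.46 CPM in fibroblast-like, 3.50 CPM in mural-like and 2.12 CPM in endothelial-like cells, and neighbours in that order overlap in their ranges. The unnamed clusters had 42.6 ± 24.9 CPM.

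**Figure D1:**
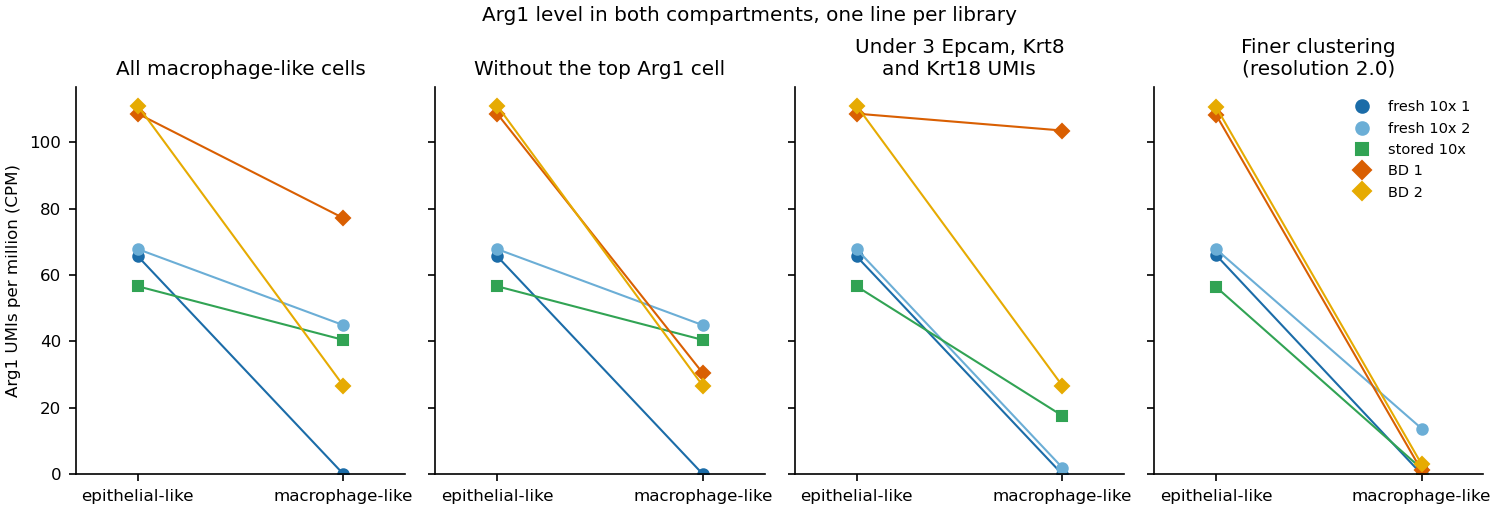
Arg1 level (CPM, vertical axis) in epithelial-like and macrophage-like cells, 1 line per library, with all macrophage-like cells, without the single macrophage-like cell richest in Arg1, without macrophage-like cells holding 3 or more UMIs of Epcam, Krt8 and Krt18, and with the finer clustering, where the class is the C1q-rich set alone. The epithelial point is the higher one on every line, by 44.1 ± 29.5 CPM in the first panel and 78.0 ± 27.3 CPM in the last. The last panel leaves out the cells that held 349 of the 362 macrophage-like Arg1 UMIs, so its gap is wider by construction.

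Cells with an Arg1 UMI gave the same order. They were 24.7%, 26.0%, 26.2%, 32.4% and 28.2% of epithelial-like cells, in the order of the libraries above, at median depths of 10832 to 13909 UMIs. Among macrophage-like cells they were 0%, 6.60%, 3.33%, 7.14% and 3.60%, at median depths of 4542 to 11501 UMIs. T-like cells gave 0% to 5.37% and endothelial-like cells 0% to 2.97%, at median depths of 2458 to 6183 and 4389 to 9319 UMIs. With each cell thinned to 2000 UMIs, and the shallower cells left out (of epithelial-like cells 23, 24, 129, 0 and 0, of macrophage-like cells 2, 12, 41, 0 and 0), the epithelial shares were 6.83% to 10.8% and the macrophage shares 0% to 2.68%, against 0%, 0%, 0%, 2.70% and 4.03% in T-like and 0% to 2.22% in endothelial-like cells. The T-like class is not a clean negative, since it held 2676 and 3110 CPM of mast cell markers in BD 1 and BD 2, at most 32.3 CPM in the 10x libraries, and 1308 to 7477 CPM of epithelial markers. The thinned macrophage shares reach 2.68% and the endothelial-like ones 2.22%, both in BD 1, so a low Arg1 level spread over macrophage-like cells could not be told from background at this depth.

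The macrophage-like Arg1 UMIs sat in few cells. Of 782 macrophage-like cells 37 held any of the 362 UMIs and 12 held 5 or more. The 155 cells with under 3 UMIs of the macrophage markers C1qa, C1qb and C1qc together held 125 of the 362. Their Arg1 level was 116 CPM, against 38.5 CPM in the other macrophage-like cells. A single cell of BD 1 held 139 UMIs, which was 61.0% of the macrophage-like Arg1 of that library. This cell had 1965 UMIs of Lyz2 and 31 of Gpnmb, genes of phagocytic macrophages, and 2 UMIs of Epcam, Krt8 and Krt18 together. The richest cell of fresh 10x 2 was of another kind, with 27 Arg1 UMIs, 65 UMIs of the 3 epithelial genes and 2 of Lyz2.

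The share of macrophage-like Arg1 in cells with epithelial transcripts rested on few cells. Of the macrophage-like Arg1 UMIs, 97.4% in fresh 10x 2 and 73.2% in stored 10x were in cells with 3 or more UMIs of Epcam, Krt8 and Krt18, against 15.4% in BD 1 and 25.9% in BD 2. Such cells were 20 of 106, 45 of 180, 61 of 224 and 36 of 222 macrophage-like cells in the same order. In stored 10x, 21 of the 41 Arg1 UMIs were in a cell with exactly 3 epithelial UMIs, 753 of Lyz2 and 43 of Gpnmb. With those cells left out the macrophage-like levels were 0, 2.003, 17.6, 103 and 26.7 CPM, and the epithelial level stayed above it in all 5 libraries by 51.9 ± 30.8 CPM. In BD 1 the remaining difference was 5.09 CPM, while it was 78.2 CPM with the single richest cell of BD 1 left out and all others kept. What part doublets and free RNA have in these UMIs was not tested.

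A finer clustering split the macrophage-like cells into a set of 503 and a set of 279. In the larger set the complement genes C1qa, C1qb and C1qc, which mark tissue macrophages, summed to 12239 CPM and Arg1 reached 2.88 CPM from 13 UMIs (0, 13.7, 1.62, 1.11 and 3.002 CPM by library). In the smaller set the C1q genes summed to 2823 CPM, Gpnmb to 616 CPM and Arg1 to 128 CPM from 349 UMIs. The smaller set thus held 349 of the 362 Arg1 UMIs. By library its Arg1 level was 0 (4 cells), 76.3, 101, 196 and 71.7 CPM. This was above the epithelial-like level in fresh 10x 2, stored 10x and BD 1 (67.8, 56.6 and 109 CPM). It was below that level in fresh 10x 1 and BD 2 (65.6 and 111 CPM). In fresh 10x 2, stored 10x and BD 1 a single cell held 27 of 33, 21 of 40 and 139 of 226 of these UMIs. The smaller set lay in a mixed cluster of 303 cells led by immunoglobulin genes, mast cell genes (Mcpt4, Cpa3), Lyz2 and Gpnmb. The marker rule called that cluster mast-like at this resolution. Lyz2 was at 8067 CPM in the smaller set, with a UMI in 78.1% of its cells, against 5266 CPM in the larger set. Mast cell markers summed to 11.0 to 114 CPM in all macrophage-like cells. The name of the smaller set is thus unsettled. Nos2 was found in 4 macrophage-like cells, 1 of which also held Arg1.

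Within the epithelium, Arg1 was uneven. The tenth of epithelial-like cells richest in Arg1 held 78.0% to 85.4% of its UMIs. The cluster led by Wif1, Smr2 and Slpi (Wif1 encodes a secreted Wnt inhibitor) had the highest mean, with 1050, 191, 334 and 293 CPM in the libraries other than fresh 10x 1 (467 ± 394, SD, n = 4). The rank holds at this resolution. In the finer clustering, over all libraries together, a Prh1-led cluster had 343 CPM and the Wif1-led one 331 CPM. At resolution 1.0 the Wif1-led cluster rested on 36 cells in fresh 10x 2 and on 12 cells in fresh 10x 1, where no value is given. Arg1 and Ddah1 were both among the 10 leading genes of this cluster, although neither was used to form it.

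The cluster led by Prh1, Scgb2b27 and Pip, which are secretory genes, came next. Its Arg1 level was 119, 69.4, 120, 236 and 265 CPM (162 ± 84.3, n = 5), and it held 34.6% of the epithelial Arg1 UMIs in 17.8% of the cells. The cluster led by Cartpt, Isg15 and Ifit1, the last 2 of them interferon-induced, had 121 ± 33.2 CPM, and the cluster led by the mitotic genes Ube2c and Birc5 had 81.8 ± 24.4 CPM. The lowest levels were in the cluster led by Npy (15.9 ± 5.73 CPM) and in the basal cluster led by Krt5 and Krt14 (6.60 ± 5.09 CPM). Among the 4 highest clusters neighbours overlap in their ranges, and the basal cluster lies below the ranges of the first 4.

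Ddah1 was also highest in the Wif1-led cluster, with less spread between libraries than Arg1. In the Wif1-led cluster it was 233, 254, 225 and 239 CPM (mean 238, n = 4), apart from the other epithelial-like clusters with values. It was 79.2 ± 9.24 CPM (n = 5) in the Prh1-led cluster and 11.7 ± 2.45 CPM in the cluster led by the milk genes Csn1s2a and Csn2, its lowest. The basal cluster, lowest for Arg1, had 35.3 ± 7.96 CPM of Ddah1. Cells with at least 2 Wif1 UMIs gave 119, 120, 222, 249 and 260 CPM of Ddah1, against 41.3 to 49.8 CPM in the other epithelial-like cells. These included the 20 cells of fresh 10x 1 and the 23 cells of fresh 10x 2 with such counts.

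**Figure D2:**
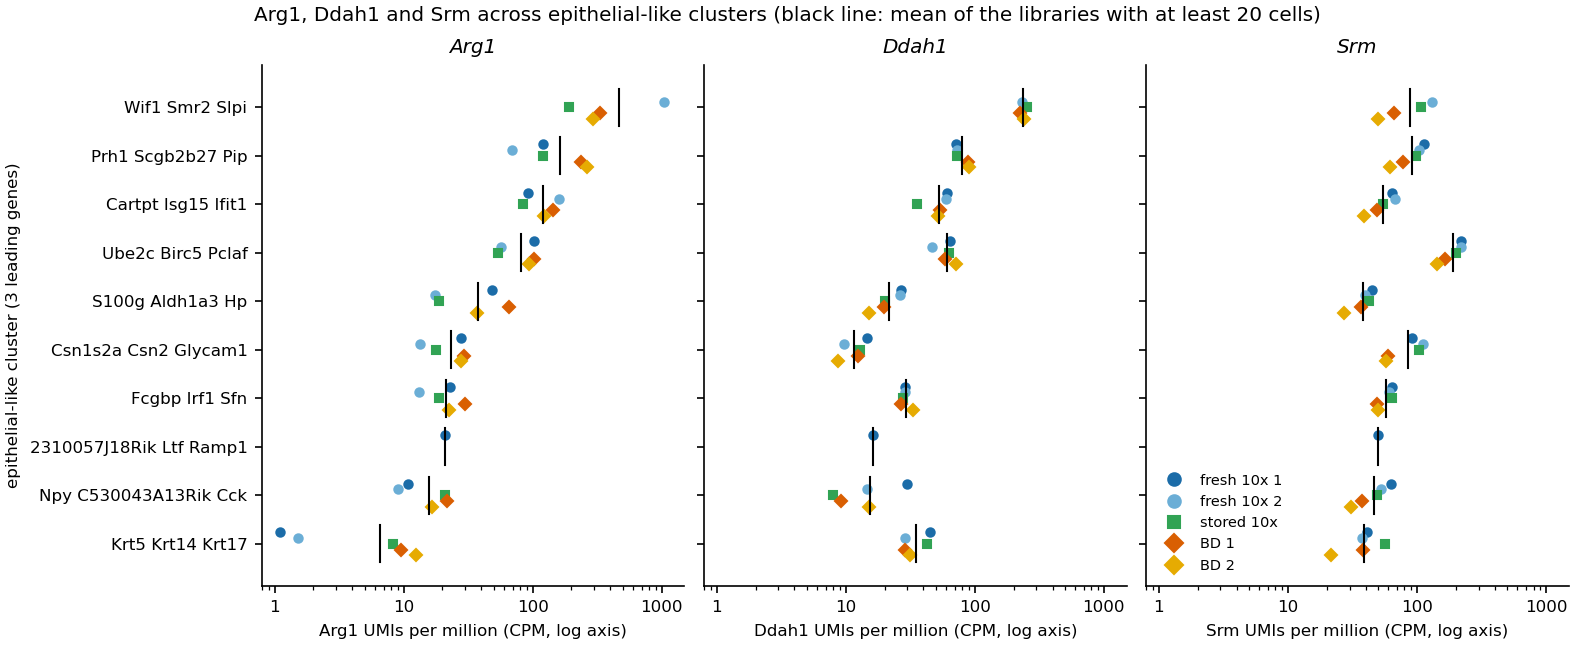
Levels of Arg1, Ddah1 and Srm (CPM, logarithmic horizontal axes) in the epithelial-like clusters, each named by its 3 leading genes, with 1 point per library holding at least 20 cells and a black line at the mean. Ddah1 in the Wif1-led cluster lies at 225 to 254 CPM in all 4 libraries shown, and Srm is highest in the cluster led by Ube2c, Birc5 and Pclaf at 143 to 220 CPM.

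The other members had cluster patterns of their own. Srm was highest in the Ube2c-led cluster (220, 218, 202, 165 and 143 CPM, mean 190 ± 33.9), apart from the others, where the means ran from 38.1 to 91.2 CPM. Odc1 was 93.7 ± 23.0 CPM in the Ube2c-led cluster and 88.9 ± 13.9 CPM in the basal cluster, against 16.6 ± 2.29 CPM in the Npy-led cluster. Ass1 was 126 to 137 CPM in the Ube2c-led cluster and 74.3 to 104 CPM on average elsewhere in the epithelium. Sat1, the catabolic gene, had its highest mean, 542 ± 70.8 CPM in the Csn1s2a-led cluster and its lowest, 282 ± 42.4 CPM, in the Wif1-led cluster. Asl was 77.9 ± 8.63 CPM in the Prh1-led and 49.9 ± 4.93 CPM in the Ube2c-led cluster. Oat means in the epithelium lay between 25.1 and 53.8 CPM, and Arg2 means between 1.64 and 15.3 CPM.

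Of the members, Ddah1 had the highest mean ratio between cells with and without Arg1. In epithelial-like cells thinned to 2000 UMIs, cells with an Arg1 UMI had 121, 130 and 120 CPM of Ddah1 in the 10x libraries, against 36.7, 40.8 and 46.0 CPM in cells without one. In BD 2 the values were 131 against 49.5 CPM, and in BD 1 the cells without an Arg1 UMI had 37.5 CPM, those with one being higher by 1.41 on the log2 scale. The ratio was above 1 in 5 of 5 libraries, with a mean of 1.52 ± 0.16 on the log2 scale (2.87-fold, SD over libraries). The Arg1-positive cells numbered 91, 100, 204, 285 and 313.

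Of the other members, Arg2 was higher in Arg1-positive cells in 4 libraries (1.38 ± 0.34, log2) and had 0 UMIs in the 100 Arg1-positive cells of fresh 10x 2. Srm (0.36 ± 0.16) and Sat1 (0.26 ± 0.16) were higher in 5 of 5 libraries. Odc1, which uses the ornithine that arginase makes, was higher in 4 of 5 but with a spread wider than its mean (0.10 ± 0.72). Oat was higher in 3 of 5 (0.23 ± 0.30), Ass1 in 2 of 5 (−0.08 ± 0.38) and Asl in 1 of 5 (−0.20 ± 0.37). Nos2 had no UMI in these thinned cells.

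Across thinned epithelial-like cells, the genes most like Arg1 among 3715 genes were Car6, Scgb2b27, Ncald, Slc12a2 and Ddah1. Likeness was Pearson's correlation of log counts over the cells of a library, averaged over the 5 libraries, and was 0.271 for Car6, 0.156 for Scgb2b27, 0.155 for Ncald, 0.145 for Slc12a2 and 0.141 for Ddah1. Cells of a library share its depth and its free RNA, and values of this size in sparse counts are weak. Car6, a secreted carbonic anhydrase, and Scgb2b27 are themselves among the leading genes of the Prh1-led cluster. In macrophage-like cells too few held Arg1 for such a ranking.

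Outside the epithelium the members differed in where they were highest. Arg2 reached 6.77 ± 0.579 CPM in epithelial-like and 5.12 ± 2.10 CPM in macrophage-like cells, whose ranges overlap. It was higher in the 41 neutrophil-like cells, at 128, 0, 124, 486 and 265 CPM from 48 UMIs in all. These cells are few, and their epithelial markers summed to 728 to 18288 CPM.

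Ass1 was steady in epithelial-like cells, at 97.0, 96.5, 99.0, 93.7 and 91.4 CPM, and uneven in fibroblast-like cells, at 221, 159, 69.6, 52.4 and 39.1 CPM. The fibroblast-like cells formed 2 clusters. In the cluster led by the matrix genes Spon1, Thbs4 and Lrrc15, Ass1 was 262, 217, 159, 122 and 103 CPM, and in the cluster led by Clec3b, Efemp1 and Dpt it was 53.7, 61.9, 38.6, 30.1 and 25.5 CPM. The values of the clusters do not overlap. The Spon1-led cluster made up 81.4% and 62.5% of the fibroblast-like cells of fresh 10x 1 and 2, but 23.0%, 26.9% and 20.5% in stored 10x and the BD libraries. Within each cluster the fresh 10x values were the highest as well.

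Ddah1 split the fibroblast-like cells in the same manner. It was 235, 430, 134, 124 and 190 CPM in the Spon1-led cluster and 41.8, 46.4, 19.5, 20.2 and 19.6 CPM in the Clec3b-led cluster. Fibroblast-like cells held 31.2%, 30.9%, 7.09%, 10.7% and 6.24% of all Ddah1 UMIs. In macrophage-like cells Ddah1 was 10.1 ± 9.77 CPM from 48 UMIs, 46 of which were in cells with 3 or more UMIs of Epcam, Krt8 and Krt18.

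Among the named classes Asl, the partner of Ass1, had its highest mean in epithelial-like cells (58.9, 56.6, 60.2, 62.0 and 69.0 CPM), apart from macrophage-like cells (41.6 ± 3.85 CPM). Its fibroblast-like level was low, at 17.0 ± 5.07 CPM. The unnamed clusters had 63.6 ± 15.4 CPM of Asl and the 41 neutrophil-like cells 44.9 ± 35.9 CPM. Oat was the most stromal member. It reached 381, 364, 291, 249 and 223 CPM in fibroblast-like cells and 194 ± 60.2 CPM in mural-like cells, which overlap each other and lie apart from the next class, the macrophage-like one at 51.3 ± 11.4 CPM. Both fibroblast-like clusters had high Oat, with 318 ± 68.9 and 257 ± 109 CPM.

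Nos2 was nearly confined to endothelial-like cells in the fresh 10x libraries. They held 16 of 17, 17 of 17, 3 of 6, 7 of 14 and 1 of 12 Nos2 UMIs of the libraries. The endothelial-like level was 11.3, 18.4, 5.08, 14.9 and 12.1 CPM, apart from the macrophage-like level of 0 to 1.97 CPM. Endothelial-like cells made up 8.43%, 5.25%, 2.13%, 1.19% and 0.311% of the libraries. Nos3, the endothelial nitric oxide synthase, was at 86.5 ± 23.8 CPM in the same cells and under 1 CPM on average in each other class.

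Among the polyamine genes, Odc1 was highest in endothelial-like cells (157, 186, 149, 179 and 60.7 CPM), the last of these from 13 cells, and then in T-like cells (104 ± 33.0 CPM). It was 54.6 ± 13.4 CPM in epithelial-like and 47.0 ± 15.5 CPM in macrophage-like cells, and neighbours in this order overlap. Srm was alike in fibroblast-like (97.2 ± 23.1 CPM) and epithelial-like cells (94.9 ± 17.8 CPM). It was lower in macrophage-like (43.0 ± 17.7 CPM) and T-like cells (41.6 ± 18.2 CPM), whose ranges overlap. Sat1 was highest in macrophage-like cells (955, 801, 961, 1242 and 1122 CPM) and endothelial-like cells (1157, 1219, 1054, 577 and 984 CPM), with 914 ± 317 CPM in the 41 neutrophil-like cells. The first 2 lay apart from epithelial-like cells (422 ± 50.7 CPM), which lay apart from fibroblast-like cells (215 ± 33.8 CPM).

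**Figure D3:**
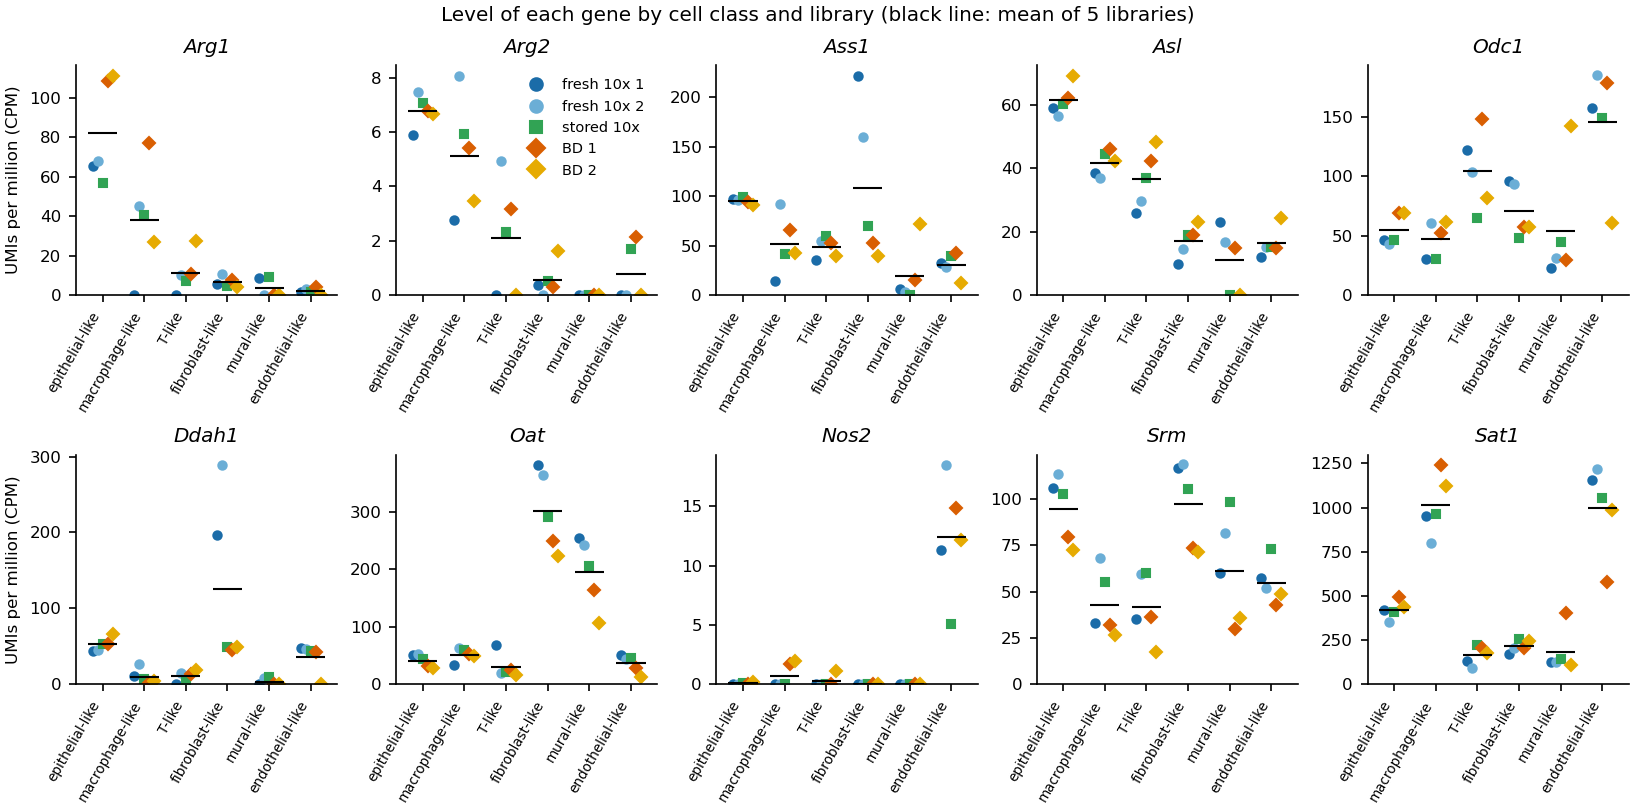
Level of each member (CPM, vertical axes starting at 0) in 6 cell classes, with 1 point per library and a black line at the mean of the 5 libraries. Arg1 and Asl are highest in epithelial-like, Oat in fibroblast-like, Nos2 in endothelial-like and Sat1 in macrophage-like and endothelial-like cells; the mural-like and endothelial-like points of BD 1 and BD 2 rest on 7 to 45 cells.

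Which members go with cell division was asked within the epithelium, where polyamine synthesis has a textbook link to growth. As a share of UMIs, spermidine synthase Srm, ornithine decarboxylase Odc1, Ass1 and Ddah1 rose in cycling epithelial-like cells, and Asl and Sat1 fell. Cells were called cycling with at least 2 UMIs of 10 mitotic genes (Mki67, Top2a, Cdk1, Ccnb1, Ccnb2, Birc5, Cenpf, Nusap1, Tpx2, Ube2c) after thinning to 2000 UMIs, which gave 142, 153, 293, 313 and 402 cells, or 10.7% to 13.6%. Before thinning the cycling cells held a median of 21031 to 30226 UMIs and the others 9954 to 13083. A lower share therefore need not mean fewer transcripts per cell, which were not compared. Sums per library were compared by edgeR's quasi-likelihood test with the library as a block. At an adjusted p under 0.05 it called 6 of the 9 members tested, while 46.5% of the 9421 genes tested were called in all, so that many genes changed with the cycling state.

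Srm was 204, 199, 154, 142 and 97.0 CPM in cycling cells against 76.9, 66.6, 69.6, 53.5 and 43.2 CPM in other cells. The cycling cells were higher in every library, by 1.25 ± 0.10 (log2 ± SE, 2.38-fold, edgeR adjusted p = 4.26e-13). Odc1 was 73.9 against 37.8, 45.8 against 28.6, 64.8 against 34.8, 136 against 42.7 and 59.7 against 52.0 CPM in the same order. It rose by 0.87 ± 0.16 (edgeR adjusted p = 2.09e-05), and by 0.53 without BD 1, where the gap was widest. Ass1 was 137 against 87.8, 131 against 82.8, 118 against 90.0, 128 against 75.1 and 103 against 77.8 CPM. Its groups do not overlap, and it rose by 0.49 ± 0.10 (edgeR adjusted p = 0.000112).

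Ddah1 rose by 0.44 ± 0.14 (edgeR adjusted p = 0.00863), from 41.2, 46.9, 46.7, 41.6 and 57.1 to 52.8, 52.3, 92.2, 63.9 and 64.7 CPM. The stored 10x library stood out. Without it the change was 0.26 (edgeR adjusted p = 0.165), and Ddah1 also missed the threshold with DESeq2 (adjusted p = 0.0583) and with a gate of at least 4 UMIs (edgeR adjusted p = 0.0551).

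Asl, which completes the step that Ass1 begins, was lower in cycling cells of every library, at 42.3, 39.2, 35.8, 43.1 and 48.5 CPM against 66.4, 66.6, 64.5, 63.9 and 67.2 CPM. The groups do not overlap, and Asl fell by 0.70 on the log2 scale (SE 0.14, edgeR adjusted p = 6.09e-05). Sat1 was 366, 307, 340, 387 and 325 CPM in cycling against 404, 341, 394, 468 and 420 CPM in other cells. It was lower within each library while the ranges overlap, and it fell by 0.32 (SE 0.07, edgeR adjusted p = 0.000357), a call that was lost without the library block (edgeR adjusted p = 0.163).

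Arg1 did not pass the test. It was higher in cycling cells of 3 libraries and lower in 2 (81.0 against 51.7, 65.4 against 77.6, 81.9 against 55.4, 112 against 89.8 and 83.3 against 99.7 CPM), with a log2 difference of 0.09 ± 0.12 (edgeR adjusted p = 0.565). Oat (0.20 ± 0.16, edgeR adjusted p = 0.325) and Arg2 (0.61 ± 0.36, edgeR adjusted p = 0.164, from 24 UMIs in cycling cells) did not pass it either. Nos2 was too rare to be tested.

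In the cycling comparison 46.5% of the 9421 genes tested were called, 2219 higher and 2158 lower. Of the 36 other pathway genes, 24 could be tested in it, and of these 9 rose and 4 fell. Those of largest size were Gatm, the first enzyme of creatine synthesis, which uses arginine (2.18 ± 0.19), Ddah2, which shares the role of Ddah1 (−1.56 ± 0.12), Mtap, which recycles the by-product of polyamine synthesis (edgeR adjusted p = 4.41e-10), and the arginine transporter Slc7a1 (1.29 ± 0.25). The median log2 difference was 0.44 over the 9 members and 0.30 over the 24 pathway genes, beside −0.04 over all genes tested.

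**Figure D4:**
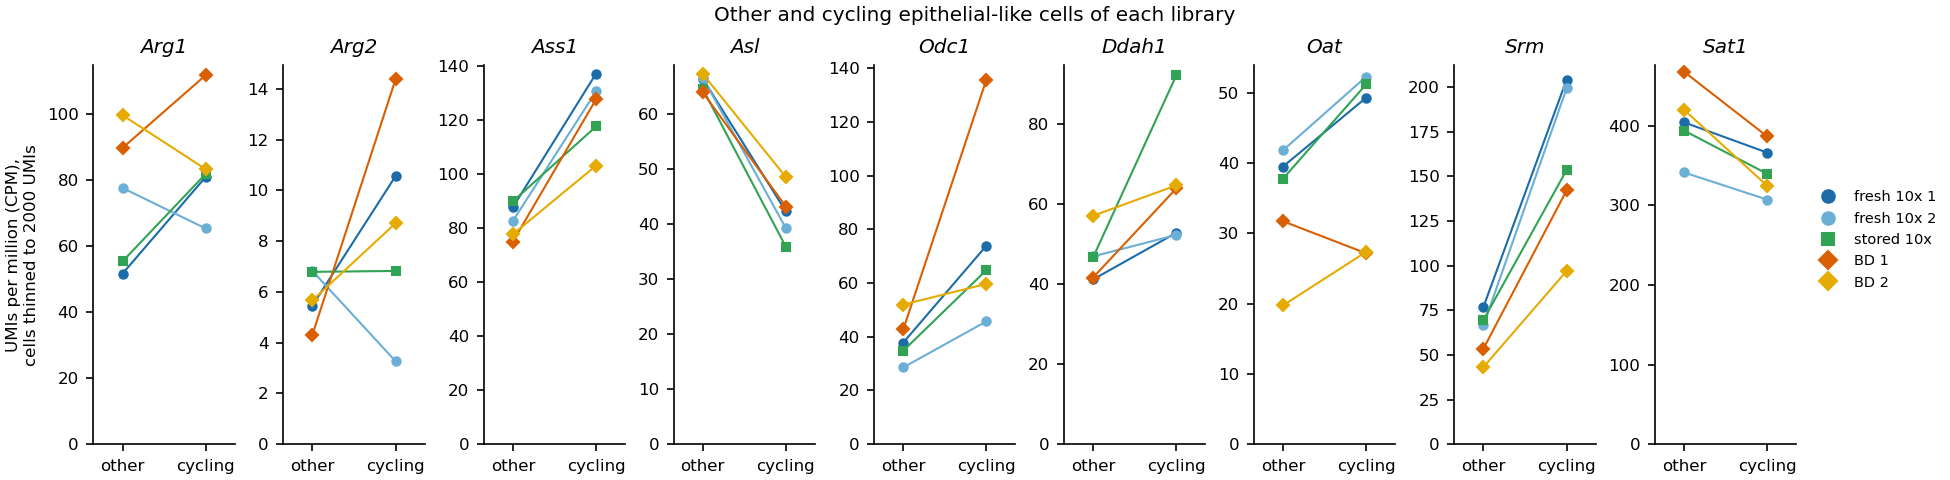
Levels of 9 members (CPM, vertical axes starting at 0) in other and in cycling epithelial-like cells, all thinned to 2000 UMIs, with 1 line per library. Every line rises for Srm, Odc1, Ass1 and Ddah1 and falls for Asl and Sat1, while the lines of Arg1 cross.

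The platform comparison set BD 1 against the fresh 10x libraries, with UMIs summed per library and edgeR's quasi-likelihood test over all genes. Only fresh 10x was replicated, so the spread behind each p-value is that of this pair, and BD 1 is assumed to vary like it. In epithelial-like cells Arg1 and Odc1 were higher on BD Rhapsody, and Oat and Srm were lower, so 4 of the 9 members tested passed an adjusted p of 0.05. This is close to the 42.5% of 15058 genes that passed it in all.

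Arg1 was at 65.6 and 67.8 CPM in the epithelial-like cells of fresh 10x and at 109 in BD 1, a log2 difference of 0.55 ± 0.10 (SE, edgeR adjusted p = 0.00523). Odc1 was at 46.0 and 42.6 against 68.9 CPM (0.48 ± 0.11, edgeR adjusted p = 0.0133). Oat was at 51.3 and 51.7 against 32.1 CPM (−0.84 ± 0.11, edgeR adjusted p = 0.00121), and Srm at 106 and 114 against 79.5 CPM (−0.62 ± 0.11, edgeR adjusted p = 0.00421). In each of these, BD 1 lies outside the fresh 10x pair. BD 2, which was not in the fit, had 111, 69.3, 27.4 and 72.6 CPM, on the side of BD 1 each time. The mitochondrial share moved with the platform. With mitochondrial and ribosomal protein genes left out the differences were 0.55, 0.48, −0.84 and −0.62. Scaling between libraries rests on most genes, so this step could hardly move them. The part of the mitochondrial share in the differences was not tested. The Arg1 call was lost when epithelial cells were chosen by transcript gates (edgeR adjusted p = 0.140), and the Odc1 call was lost there (0.374) and with DESeq2 (adjusted p = 0.0824).

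Ass1 (−0.20 ± 0.11), Ddah1 (0.10 ± 0.11), Sat1 (0.21 ± 0.15), Asl (−0.05 ± 0.11) and Arg2 (−0.13 ± 0.23) did not pass the test in epithelial-like cells. Beside the 42.5% of all genes that passed it, 10 of 31 other pathway genes tested there were higher and 11 lower. The largest differences were those of Amd2 (−1.97 ± 0.41), a near-copy of the polyamine gene Amd1 between which reads may be split, Aldh4a1, a proline-breakdown enzyme (higher, edgeR adjusted p = 0.00114), Dhps, which starts the hypusine modification made from spermidine (−1.25 ± 0.13), and spermine oxidase Smox (1.25 ± 0.11).

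Summed over whole libraries, where the share of a cell type and its RNA per cell cannot be told apart, 5 of the 10 members passed the test, beside 39.4% of 16463 genes. Arg1 was higher (55.2 and 60.4 against 89.8 CPM; 0.50 ± 0.11, edgeR adjusted p = 0.0229). Srm (102 and 110 against 73.6 CPM; −0.66 ± 0.10, edgeR adjusted p = 0.0104) and Oat (83.3 and 73.9 against 56.9 CPM; −0.60 ± 0.13, edgeR adjusted p = 0.0212) were lower. Ass1 (102 and 96.0 against 84.0 CPM; −0.38 ± 0.11, edgeR adjusted p = 0.0477) and Ddah1 (56.4 and 59.8 against 47.7 CPM; −0.42 ± 0.10, edgeR adjusted p = 0.0340) were lower in the whole library while neither passed the test in epithelial-like cells; that contrast was not tested. The Spon1-led share of fibroblast-like cells was 81.4% and 62.5% in fresh 10x against 26.9% in BD 1. Ass1, Ddah1 and Odc1 were all higher in that cluster. The part of the fibroblast-like make-up in the whole-library differences was not tested. Odc1 did not pass the test in whole libraries (0.18 ± 0.12), while in epithelial-like cells it was higher in BD 1 (0.48 ± 0.11). Arg1, Ass1 and Ddah1 missed the threshold with DESeq2 (adjusted p = 0.0697, 0.126 and 0.108), Arg1 also among cells with at most 20% mitochondrial UMIs (edgeR adjusted p = 0.0603), and Ass1 and Ddah1 also with rarely counted genes kept (0.0926 and 0.0662 by edgeR). With BD 1 and BD 2 grouped by title Ddah1 did not pass the test (edgeR adjusted p = 0.263), and Nos2, at −1.43 ± 0.61 (edgeR adjusted p = 0.127) from 17 and 17 against 14 UMIs, did (−1.36, edgeR adjusted p = 0.0367).

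Beside the 39.4% of all genes that passed the test over whole libraries, 8 of 32 other pathway genes were higher and 11 lower on BD Rhapsody. Amd2 (−2.12 ± 0.47) and Nos3 (−1.89 ± 0.40) were lower, and Gatm (1.51 ± 0.13) and Aldh4a1 (1.28 ± 0.18) higher. Nos3 is an endothelial transcript in these libraries, and the endothelial-like share was 8.43% and 5.25% in fresh 10x against 1.19% in BD 1. The part of that share in the Nos3 difference was not tested.

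In macrophage-like cells 2 of the 8 members tested passed the test, beside 21.6% of 9199 genes, and neither rests on many cells. Arg1 was at 0 and 44.9 CPM in fresh 10x and at 77.1 in BD 1 (1.19 ± 0.41, edgeR adjusted p = 0.0238). Without the single BD 1 cell with 139 Arg1 UMIs the BD 1 level was 30.4 CPM and the difference −0.14 (edgeR adjusted p = 0.856). It was 0.53 without fresh 10x 1 and 9.72 without fresh 10x 2, since the former has no Arg1 UMI, and 5.78 without cells holding 3 or more epithelial UMIs. With BD 1 and BD 2 grouped by title it was 0.61 and not called (edgeR adjusted p = 0.465). Ddah1 had 4 and 23 UMIs in fresh 10x and 5 in BD 1 (1.69 CPM), a difference of −3.78 ± 0.96 (edgeR adjusted p = 0.00120). With transcript gates this call was lost (edgeR adjusted p = 0.0858). All of these Ddah1 UMIs were in cells with 3 or more UMIs of Epcam, Krt8 and Krt18.

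Srm (0.499-fold, edgeR adjusted p = 0.0704; called with the BD libraries grouped by title, −1.12, edgeR adjusted p = 0.00935), Oat, Odc1, Ass1, Asl and Sat1 did not pass the test in macrophage-like cells, and Arg2 and Nos2 were too rare for it. Of 22 other pathway genes 3 were higher and 1 lower in BD 1, beside the 21.6% of all genes that passed the test. The arginine transporter Slc7a2 was at 2.76 and 3.45 CPM in fresh 10x and at 41.3 in BD 1 (3.37 ± 0.64), with 15.8 CPM in BD 2. Smox (1.52 ± 0.37) and Gatm (0.84 ± 0.31) were higher, and Amd1, which supplies the aminopropyl groups of spermidine and spermine, was lower (−1.72 ± 0.51). Gatm stood at 762 and 523 against 1385 CPM in macrophage-like cells, and its mean in each other class was at most 50.1 CPM.

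**Figure D5:**
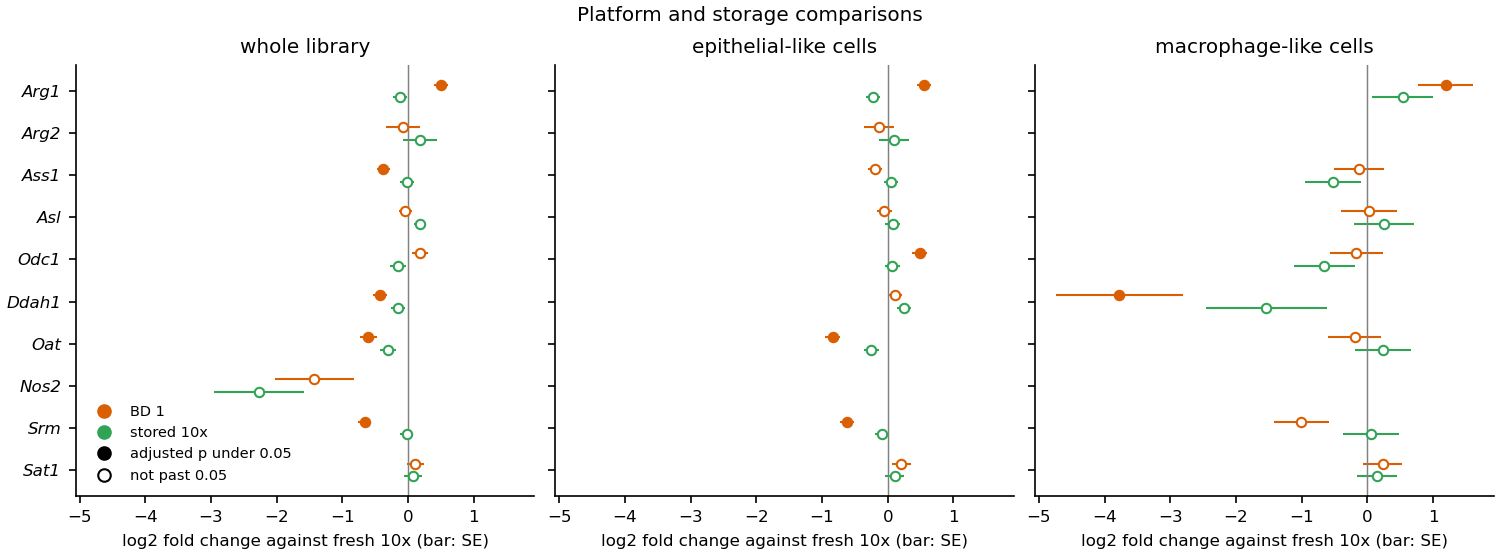
Log2 fold change of each member against fresh 10x (horizontal axes, bars show the standard error) for BD 1 and for stored 10x, in whole libraries, epithelial-like and macrophage-like cells, with filled points for an adjusted p under 0.05. Filled points belong to BD 1 alone, and the widest bars are those of Ddah1 in macrophage-like cells and of Nos2 in whole libraries.

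The storage comparison set stored 10x against the same fresh 10x pair, so it shares its controls with the platform comparison. No member passed the test in whole libraries (0 of 10, beside 0.134% of genes), in epithelial-like cells (0 of 9, beside 0.916%) or in macrophage-like cells (0 of 8, beside 1.42%). DESeq2 called 0 members in each as well, while over all genes 2625, 2426 and 744 had an unadjusted edgeR p under 0.05. With 1 stored library, and a spread drawn from the fresh pair alone, even changes well outside that pair could have been missed. The lack of calls therefore does not show a lack of change.

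In epithelial-like cells Arg1 was at 65.6 and 67.8 CPM fresh and 56.6 stored (−0.22 ± 0.11, edgeR adjusted p = 0.363), the stored value being the lowest. Ddah1 was at 44.1 and 45.5 against 52.6 CPM (0.25 ± 0.11, edgeR adjusted p = 0.320), and Oat at 51.3 and 51.7 against 43.0 CPM (−0.25 ± 0.11, edgeR adjusted p = 0.326). The remaining 6 members differed by −0.09 to 0.11 on the log2 scale. In whole libraries the size of the difference was largest for Nos2, with 17 and 17 UMIs fresh and 6 stored (−2.27 ± 0.69, unadjusted p = 0.0239, edgeR adjusted p = 0.245), next to an endothelial-like share of 8.43% and 5.25% fresh and 2.13% stored. The part of that share in the Nos2 difference was not tested. In macrophage-like cells the differences ran from −1.54 ± 0.92 for Ddah1 to 0.54 ± 0.46 for Arg1. Leaving out 1 of the fresh pair moved Arg1 to −0.14 or 9.06, Ass1 to −1.14 or 1.57 and Ddah1 to −0.68 or −1.92. None of the other pathway genes passed the test in any of the 3 sets (0 of 32, 0 of 31 and 0 of 22).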

How the data were processed

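The deposited matrices hold raw UMI counts per gene and cell, as their whole numbers and uneven cell totals show. Cell Ranger 3.0.1 and mm10 are named in the submitters' processing notes; the gene annotation is not given in the sources used here. Of the deposited matrices, 1 per library was used, and BD 1 counts as 1 library, although smaller matrices named as its replicates exist; those and a pooled fresh 10x matrix were not used here. The members and gene lists were chosen with earlier results of these data known.

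Cells with at least 200 genes were clustered in Python 3.11.15 with scanpy 1.11.5 (10000 counts per cell, 2000 variable genes without the members and pathway genes, 30 components, 15 neighbours, Leiden resolution 1.0 with igraph 0.11.9). Clusters were named from at least 3 markers at 2-fold or more, and the epithelial ones by the presence of epithelial markers. The T-like cluster was also led by immunoglobulin genes. Scrublet at an expected rate of 0.06 marked 8, 7, 2, 0 and 1 cells, under 0.5% of each library, so it did not work as a doublet filter; those cells were left out. UMI counts were summed per library and class and tested with edgeR 4.0.16 (TMM, filterByExpr, quasi-likelihood, Benjamini-Hochberg over all genes tested), after a check on simulated data. DESeq2 1.42.0, other filters, gates and groupings were alternatives. A count of 0 allows up to 3 counts, and intervals are at 95%, exact binomial, for counting error only. BD 2 was left out of the main platform and storage fits for its conflicting labels.

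All members are named in every comparison, and of the pathway list up to 4 called genes of largest change. Whether the replicate numbers pair the 10x and BD Rhapsody libraries was checked with BD 2 grouped by title. Deviations of same-numbered libraries correlated at 0.215 in whole libraries, 0.0743 in epithelial-like and −0.0455 in macrophage-like cells, which with 2 pairs does not establish a pairing.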

Additional observations from a re-analysis of the deposited data

Results flagged for a closer look

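In epithelial-like cells thinned to 2000 UMIs, Ass1 in Arg1-positive cells minus Ass1 in the other cells was −23.3 CPM in fresh 10x 1, −25.2 in fresh 10x 2 and −5.22 in stored 10x, against 28.8 in BD 1 and 7.39 in BD 2. It was set apart because every 10x library lies on one side of 0 and every BD Rhapsody library on the other. The pattern was picked for its signs, and the difference between the platforms was not tested. The Arg1-positive cells held 13, 13, 36, 61 and 55 Ass1 UMIs, and the exact 95% Poisson intervals of both kinds of cell, for counting error only, overlap in each of the 5 libraries. For BD 1 they were 81.9 to 137 CPM with and 70.4 to 86.7 CPM without an Arg1 UMI, and for stored 10x 61.8 to 122 and 85.1 to 102 CPM.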

How the results depend on the processing

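Over alternatives to the log2 fold change of single members, 551 values kept their sign and 36 changed it, 18 of these with a test and 18 with no test, where 1 fresh 10x library was left out. Apart from those, 19 lost a call and 4 gained one. Of the sign changes 1 was of a called value, Arg1 in macrophage-like cells between platforms, at −0.14 without the macrophage-like cell with the most Arg1 UMIs, an alternative chosen after seeing the data, as was leaving out macrophage-like cells with 3 or more epithelial UMIs. The other tested sign changes were of values that were not called before or after. With the BD libraries grouped by title they were Asl in whole libraries (0.13 without and 0.12 with the replicate block) and in epithelial-like cells (0.069 and 0.060), and, with the block, Asl (−0.013) and Odc1 (0.054) in macrophage-like cells. With transcript gates they were Ddah1 between platforms (−0.065) and for storage Asl (−0.016) and Odc1 (−0.080) in epithelial-like and Srm (−0.20) in macrophage-like cells. Without macrophage-like cells holding epithelial UMIs they were Oat (−0.13), Srm (−0.55) and Sat1 (−0.0026) for storage. In macrophage-like cells between platforms, Asl was −0.026 with at most 20% mitochondrial UMIs and Ass1 0.00038 with DESeq2. Arg1 in cycling cells was −0.052 with a gate of 4 UMIs and −0.0067 to 0.26 with a library left out. DESeq2 gave no adjusted p for Arg1, Asl, Ddah1, Odc1 and Srm in the macrophage-like platform comparison and for Ddah1 in that of storage.

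Counts of called genes moved most for storage. In whole libraries 22 genes became 126 with DESeq2 size factors, 1 without a filter on low counts and 389 with DESeq2. In epithelial-like cells 138 became 243, 437 without the filter and 46 with transcript gates. In macrophage-like cells 131 became 82 without cells holding epithelial UMIs and 11 with DESeq2. Between platforms, DESeq2 called 4046 genes in place of 6407 in epithelial-like cells and 308 in place of 1984 in macrophage-like cells. With BD 1 and BD 2 grouped by title and no replicate block the counts were 9053, 8618 and 3191 for whole libraries, epithelial-like and macrophage-like cells, and with the replicate block 9523, 8333 and 2809. In the cycling comparison 4377 calls became 1749 with no replicate block, and 3611 to 4276 with a library left out.

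The epithelial minus macrophage-like Arg1 difference of 44.1 CPM was 78.0 with Leiden resolution 2.0 and 34.0 to 51.1 with a library left out. The epithelial-like share of Arg1 UMIs, 95.7%, was 36.2% with transcript gates, which left 49.5% to 63.3% of cells unassigned, and the macrophage-like share, 1.81%, was 0.0981% with resolution 2.0. At that resolution the cells with 349 of the 362 macrophage-like Arg1 UMIs no longer counted as macrophage-like, which fixed both shifts in advance. Other causes were not tested. Depth left Nos2 and Arg2 untested in macrophage-like cells and Nos2 untested in epithelial-like cells.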
